A study of Homo sapiens with 24 samples.

Results

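The genes described here are the 38 genes of glucose uptake, glycolysis, lactate handling and the response to low oxygen that were listed by symbol, out of 25342 genes with a value in the table. They comprise 3 sugar carriers, 15 glycolytic enzymes from hexokinase to pyruvate kinase, the regulators PFKFB3 and PFKFB4, the gluconeogenic enzyme FBP1, 6 genes of lactate and pyruvate handling, HIF1A with the oxygen sensors EGLN1 and EGLN3, and 8 other genes induced by hypoxia. All 38 were found. EGLN3 reached 1 TPM in no library and was not tested, which left 37 tested members.

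Glycolysis splits glucose into pyruvate, and lactate dehydrogenase turns pyruvate into lactate, which leaves the cell through monocarboxylate carriers. Many of these genes are induced by HIF-1, a transcription factor whose HIF1A subunit is marked for destruction by the EGLN prolyl hydroxylases while oxygen is present. Multiple myeloma is a cancer of plasma cells, a cell type with a high demand for glucose because its proteins are secreted with sugar chains.

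RNA of 4 human myeloma cell lines was sequenced after knockdown of IRF4, a transcription factor on which myeloma cells depend. MM1S and MM1R are sister lines, sensitive and resistant to glucocorticoids, and KMS-12-BM and KMS-12-PE were both established from the same patient, from marrow and from a pleural effusion. Each line had 3 libraries of cells electroporated with a pool of siRNAs against IRF4 and collected after 48 h (siIRF4) and 3 libraries labelled as DMSO at 0 h (CTRL), 24 in all. The labels name no control siRNA, so knockdown, siRNA delivery, electroporation, DMSO and 48 h of culture cannot be told apart. They do not say that the replicates were separate cultures, and p-values then measure only the spread between these libraries. Values are TPM, which are scaled by gene length and sum to the same total in every library, so that each value is a share of the measured transcripts. In such bulk RNA, fewer cells that express a gene and less RNA per cell cannot be told apart.

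IRF4 itself was lower in siIRF4 in every line. The mean TPM fell by 50.4% in MM1S, 52.6% in KMS-12-PE, 23.5% in MM1R and 38.4% in KMS-12-BM, with no overlap between the groups and an exact two-sided permutation p of 0.1 in each line, the smallest that 3 against 3 libraries allow. Between 17.3 and 27.4 M reads per library were recovered from the TPM values. All 8 plasma cell markers averaged at least 1 TPM in every group, although SDC1, the syndecan used to sort plasma cells, was at 6.05 TPM in KMS-12-BM CTRL against 182.4 TPM in KMS-12-PE CTRL. Genes of other tissues differed between the lines. The keratin KRT14 averaged 48.3 and 52.3 TPM in the CTRL libraries of MM1S and KMS-12-PE, and was at 0 in every MM1R library. KMS-12-BM CTRL had KRT14 at 0.075 TPM, but the keratin KRT8 at 66.7 TPM and the epithelial gene EPCAM at 146.1 TPM. The summed CTRL level of 6 epithelial markers averaged 5.9 TPM in MM1R, 106 TPM in MM1S, 213 TPM in KMS-12-BM and 240 TPM in KMS-12-PE. Among the 3 KMS-12-BM siIRF4 libraries, ITGB7, an integrin that is high in the MM1 lines, ranged from 58.1 to 186 TPM.

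Differences below are on the log2(TPM + 1) scale, siIRF4 minus CTRL, from 1 limma fit of all 24 libraries, where 1 means a doubling. They understate the ratio of genes near 1 TPM. A gene counted as called when its Benjamini-Hochberg adjusted p over the 15113 tested genes was below 0.05, and the adjusted p-values given are from that fit unless another is named.

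Of the 15 glycolytic enzymes, 9 were lower in MM1R and 10 in MM1S, while KMS-12-BM had 3 and KMS-12-PE 1, and 2, 2, 1 and 1 were higher. In MM1R, 18 of the 37 tested members were lower and 8 higher, where 21.2% of all tested genes were called lower and 25% higher. For MM1S the members' counts were 21 lower and 8 higher, and the background was 21.1% lower and 29.1% higher. KMS-12-BM had 7 members lower and 4 higher against 6.09% and 11.4% of all genes, and KMS-12-PE had 11 lower and 3 higher against 22.2% and 15.9%. The median difference of the 37 members was -0.14, -0.16, -0.05 and -0.07 in this order of lines, and that of all tested genes 0.03, 0.04, 0.04 and -0.02. With median-of-ratios scaling the share of higher genes among all genes called in KMS-12-BM was 48.4% in place of 65.3%, and the members' counts there were 9 lower and 3 higher. The 4 higher members of KMS-12-BM were 2 without CTRL replicate 2, without CTRL replicate 3 or without siIRF4 replicate 1, and the 3 of KMS-12-PE were 5 without its CTRL replicate 1.

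On average over the 4 lines 22 members were lower and 8 higher, with a background of 26.5% and 33.1%. LDHA and SLC16A1, the enzyme that makes lactate and a carrier that exports it, were called lower in all 4 lines, and FBP1, which runs the phosphofructokinase step backwards, was called higher in all 4. A total of 15 members were lower in 2 lines and higher in none, and 5 members were called in no line: PFKP, PFKFB3, PDK3, EGLN1 and BNIP3. The share of all tested genes with such patterns over the lines was not counted, so these counts have no background.

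The promoters of 4 genes whose differences are described below are shown as examples of 2 letter forms of the HIF-binding core. LDHA and ANKRD37, which were lower, carry ACGTG several times, and FBP1 and KDM3A, which were higher, carry GCGTG. Other members do not follow this split, as given below. The sequences are the 250 bases before the annotated start, from RefSeq on GRCh38.p14, 5′ to 3′ on the gene's strand, with ACGTG and GCGTG of either strand in capitals. The expression values were made on hg19 and were joined by gene symbol only.
LDHA, chr11:18394313-18394562, plus strand: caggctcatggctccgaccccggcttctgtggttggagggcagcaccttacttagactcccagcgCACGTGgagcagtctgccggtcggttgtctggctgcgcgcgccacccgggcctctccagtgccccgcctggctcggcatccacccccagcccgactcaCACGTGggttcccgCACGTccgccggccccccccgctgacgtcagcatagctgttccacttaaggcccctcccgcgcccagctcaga
ANKRD37, chr4:185396591-185396840, plus strand: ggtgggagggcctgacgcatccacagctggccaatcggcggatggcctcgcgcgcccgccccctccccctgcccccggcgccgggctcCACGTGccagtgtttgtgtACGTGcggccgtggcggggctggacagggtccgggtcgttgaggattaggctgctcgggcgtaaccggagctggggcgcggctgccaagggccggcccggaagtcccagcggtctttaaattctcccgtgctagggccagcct
FBP1, chr9:94639519-94639768, minus strand: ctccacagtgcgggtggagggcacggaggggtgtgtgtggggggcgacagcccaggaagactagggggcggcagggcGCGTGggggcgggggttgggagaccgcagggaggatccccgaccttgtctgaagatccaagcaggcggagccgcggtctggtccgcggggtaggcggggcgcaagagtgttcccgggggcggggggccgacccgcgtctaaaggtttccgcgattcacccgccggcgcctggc
KDM3A, chr2:86441121-86441370, plus strand: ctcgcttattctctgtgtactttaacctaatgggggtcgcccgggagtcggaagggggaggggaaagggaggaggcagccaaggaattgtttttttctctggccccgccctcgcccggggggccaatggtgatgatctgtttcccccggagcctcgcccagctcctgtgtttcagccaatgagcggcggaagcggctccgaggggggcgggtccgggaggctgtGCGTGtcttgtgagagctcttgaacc
The LDHA window holds 5 matches to ACGTG counting both strands, 4 of them in 2 palindromes CACGTG, and the nearest match ends 68 bases before the start. ANKRD37 holds 3 matches, and FBP1 and KDM3A hold 1 GCGTG each. Of the 38 members 33 had a promoter in the table, and 13 of these (39.4%) held ACGTG, against 18.5% of 35116 promoters. GCGTG was also in 13 of the 33 (39.4%), against 32.2% of all promoters. The E-box CACGTG, a MYC and USF motif that contains ACGTG, was in 5 of the 33 (15.2%), against 6.34%. The 35116 promoters are all those available, not only those of the 15113 tested genes. These shares therefore do not compare the members with expressed genes alone, and the differences were not tested. The 4 printed promoters were picked after the values were seen. ALDOC, which rose in the MM1 lines, holds 3 matches to ACGTG and 2 to GCGTG. ENO1 and ADM, which fell in the MM1 lines, hold 2 and 1 GCGTG and 0 ACGTG. Of the 19 members called lower on average that had a promoter, 9 held ACGTG and 6 GCGTG. Of the 6 called higher, 1 and 4 did, and of the 7 not called, 3 and 3. A match describes letters only, and no match says only that these letters are not in this window.

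Control cells of the 4 lines already differed in which isoform they used at several steps. Of the 37 tested members, 16 were higher and 19 lower in MM1 CTRL than in KMS-12 CTRL, where 40.4% of all tested genes were called higher and 44.8% lower. GAPDH was the most abundant member in every line, at 4444 TPM in MM1R, 3812 TPM in MM1S, 3502 TPM in KMS-12-BM and 4273 TPM in KMS-12-PE. PFKP, the platelet-type phosphofructokinase, was at 0.201 to 1.198 TPM in MM1R CTRL and 1.49 to 1.74 TPM in MM1S CTRL, and at 68.2 to 74.3 TPM in KMS-12-BM and 84.95 to 91.4 TPM in KMS-12-PE. Its MM1R mean was 0.863% of the KMS-12-BM mean, and CCND1, a cyclin that marks the KMS-12 lines, was at 0.515% of its KMS-12-BM level in the same libraries.

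ENO2, the enolase best known from neurons, went the other way, with 365 TPM in MM1R CTRL, 272 TPM in MM1S, 65.8 TPM in KMS-12-BM and 15.3 TPM in KMS-12-PE. The MM1 lines exceeded the KMS-12 lines by 3.27 (SE 0.0498, adjusted p = 1.06e-23). PDK1, which shuts pyruvate out of the mitochondrial dehydrogenase, was at 211 TPM in MM1R and 13.4 TPM in KMS-12-BM, and ADM, the vasodilator peptide adrenomedullin, at 269.8 and 10.6 TPM. FBP1 was at 63.7 TPM in KMS-12-BM and between 2.53 and 3.65 TPM in the other lines. BNIP3, a mitophagy receptor, was at 57.5 TPM in KMS-12-PE and between 0.668 and 3.31 TPM elsewhere. KMS-12-BM and KMS-12-PE, from the same patient, were called apart for 30 of the 37 members (81.1%). Of these, 11 were higher and 19 lower in KMS-12-BM. Of all tested genes 37.3% were called higher and 40% lower, together a share near that of the members. MM1R and MM1S were also called apart for 30, of which 14 were higher and 16 lower in MM1R, against 29.7% and 27.6% of all genes.

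**Figure D1:**
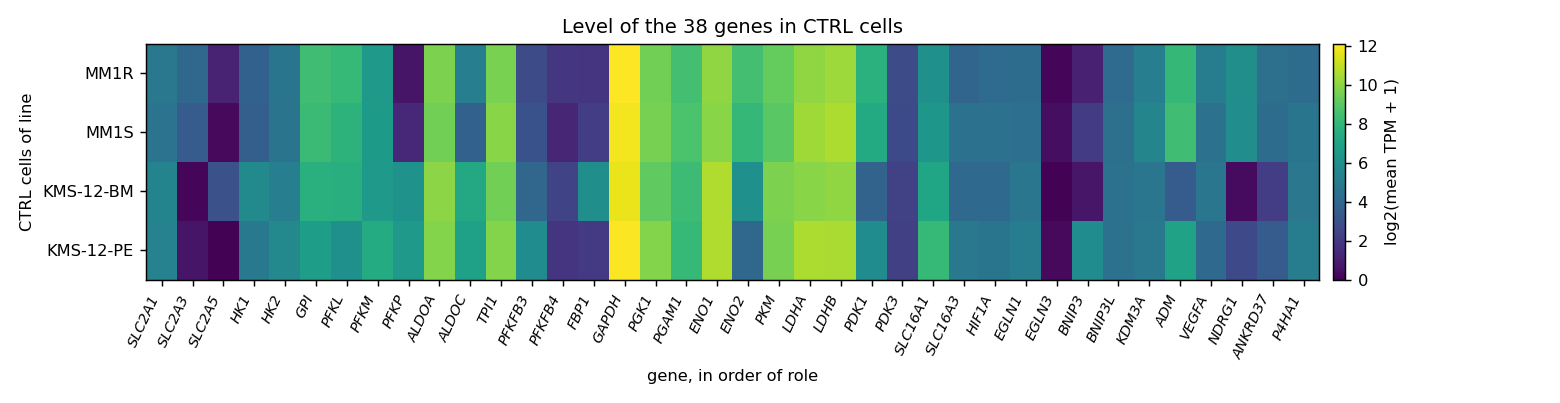
Heat map of log2(mean TPM + 1) in the 3 CTRL libraries of each line (rows) for the 38 genes in order of role (columns), with the colour scale at the right. The dark cells of PFKP in the MM1 lines and of SLC2A3 and NDRG1 in KMS-12-BM mark genes near or under 1 TPM there, and GAPDH is the brightest column.

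The 3 sugar carriers did not move together. SLC2A1 (GLUT1), the basal glucose carrier, was called lower in every line but KMS-12-BM. Its CTRL libraries in KMS-12-PE were at 40.4, 41.9 and 38.9 TPM and its siIRF4 libraries at 29.2, 30.01 and 31.6 TPM, without overlap, a difference of -0.40 (SE 0.0565, adjusted p = 7.95e-06). In MM1R it went from 28.3, 25 and 30.4 to 25.2, 23.9 and 25.1 TPM, where the groups overlapped, and the difference was -0.16 (adjusted p = 0.0237); in MM1S it was -0.16 (adjusted p = 0.0231) and in KMS-12-BM -0.06 (adjusted p = 0.527). The MM1R call was lost without CTRL replicate 1 or 3 or siIRF4 replicate 2 (adjusted p up to 0.18, difference as small as -0.10), and the MM1S call without CTRL replicate 2 or 3 or siIRF4 replicate 2 or 3.

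SLC2A3 (GLUT3), a high-affinity glucose carrier, rose in both MM1 lines. It was at 15.7, 14.7 and 15.4 TPM in MM1R CTRL and 19.6, 20.2 and 20.4 TPM in siIRF4, a difference of 0.37 (SE 0.0863, adjusted p = 0.00121). MM1S went from 11.1, 9.48 and 11.6 TPM to 19.4, 19.1 and 18.1 TPM, or 0.77 (adjusted p = 2.04e-07). All siIRF4 libraries of both lines lay above their controls. The KMS-12 lines held only traces: KMS-12-BM had 5 to 7 reads per CTRL library and 2 to 15 in siIRF4, and KMS-12-PE had 21 to 23 reads (0.563 to 0.625 TPM) in CTRL and 5 to 6 (0.127 to 0.148 TPM) in siIRF4, where the difference was -0.48 (adjusted p = 0.000133), or -1.54 with a pseudocount of 0.1 and -1.97 with voom. These KMS-12-PE levels were 5.53% and 1.29% of the MM1S CTRL level, and ITGB7 moved from 0.714% to 0.115% of its MM1S level in the same libraries; the part of such traces in the result was not tested. With a pseudocount of 0.1 the MM1R difference was 0.39, and its call was lost (adjusted p = 0.246). The average over the 4 lines was then -0.02 and not called, in place of 0.19. SLC2A3 shares long stretches of sequence with SLC2A14, and how reads common to both were counted is not given in the sources used here.

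SLC2A5, the fructose carrier GLUT5, rose in the MM1 lines and fell in KMS-12-BM. It went in MM1R from 1.599, 0.919 and 1.37 TPM to 4.66, 3.41 and 3.16 TPM, by 1.04 (SE 0.123, adjusted p = 5.08e-07), and in MM1S from 0.202, 0.325 and 0.212 to 0.623, 0.547 and 0.725 TPM, by 0.39 (adjusted p = 0.0117). KMS-12-BM, the line with most of it, fell from 5.92, 7.64 and 7.62 TPM to 1.64, 2.25 and 2.33 TPM, a difference of -1.39 (adjusted p = 6.02e-08). No group overlapped with its control in these 3 lines. KMS-12-PE had 1 to 3 reads per CTRL library and 0 to 1 in siIRF4, too few to compare. With a pseudocount of 0.1 the MM1S difference was 1.09 and with voom 1.33. The MM1 effect exceeded the KMS-12 effect, an average that includes these few KMS-12-PE reads, by 1.45 (adjusted p = 5.05e-09), and by 2.41 with a pseudocount of 0.1 and 3.08 with voom.

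Enzymes of upper glycolysis, which spend ATP to make the triose phosphates, were partly lower in the MM1 lines: 4 of 9 were called lower and 2 higher in MM1R and likewise in MM1S, 2 lower and 1 higher in KMS-12-BM, and 1 lower and 1 higher in KMS-12-PE. As shares of the 9 (44.4% lower and 22.2% higher in each MM1 line) the higher calls lay below the background given above for these lines and the lower calls above it, and both shares in KMS-12-PE were below its background. In KMS-12-BM 22.2% were lower, against 6.09% of all genes, and 11.1% higher, against 11.4%. ALDOA, the main aldolase, was at 797, 849 and 861 TPM in MM1R CTRL and 590.2, 643 and 663 TPM in siIRF4, and at 713, 753 and 757 and 612, 576 and 594 TPM in MM1S. The differences were -0.40 (SE 0.0411, adjusted p = 6.85e-08) and -0.32 (adjusted p = 1.39e-06), without overlap. KMS-12-BM (1036 to 1066 TPM in CTRL, 996 to 1055 TPM in siIRF4) and KMS-12-PE (888 to 963 and 887 to 901 TPM) overlapped, with differences of -0.03 and -0.05. The effects of the families differed by -0.32 (adjusted p = 1.49e-06). ALDOC, the aldolase of brain, rose instead in the MM1 lines, by 0.34 (adjusted p = 0.000121) in MM1R and 0.29 (adjusted p = 0.000491) in MM1S. Its share of ALDOA and ALDOC together went from 4.07% to 6.68% in MM1R and from 1.68% to 2.59% in MM1S, and was 13.1% and 13.3% in KMS-12-BM.

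TPI1, which interconverts the triose phosphates, followed ALDOA. MM1R had 784, 841 and 821 TPM in CTRL and 599, 633 and 671 TPM in siIRF4 (-0.36, adjusted p = 2.09e-08), MM1S had 988, 988 and 993 TPM and 737, 783 and 757 TPM (-0.38, adjusted p = 6.91e-09). In both lines each siIRF4 library was under every control. The differences in KMS-12-PE (-0.08) and KMS-12-BM (-0.01) were not called. GPI, which turns glucose phosphate into fructose phosphate, fell by 18.2% in mean TPM in MM1R and by 17.3% in MM1S, with differences of -0.29 (adjusted p = 2.7e-05) and -0.27 (adjusted p = 4.25e-05). Its differences in KMS-12-PE (-0.06) and KMS-12-BM (-0.11) were not called either.

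Hexokinases trap glucose in the cell, and HK2 was called lower in 3 lines. HK2, the inducible form, was most abundant in KMS-12-PE, with 53.3, 52.4 and 48.8 TPM in CTRL and 36.4, 37 and 37.6 TPM in siIRF4. The difference there was -0.47 (SE 0.0452, adjusted p = 5.75e-08), and HK2 was also called in MM1S (-0.28, adjusted p = 2.7e-05) and KMS-12-BM (-0.22, adjusted p = 0.00162), but not in MM1R (-0.11, adjusted p = 0.0519). HK1, the form of most tissues, was called higher in MM1S, from 11.3, 11.2 and 12.2 to 15.1, 14.2 and 14.6 TPM (0.31, adjusted p = 0.000122), and stood at 0.12, 0.12 and 0.05 in MM1R, KMS-12-BM and KMS-12-PE without a call. The HK2 share of both went from 66.5% to 62.6% in MM1R, 67.8% to 57.7% in MM1S, 40.6% to 34.9% in KMS-12-BM and 63.8% to 55% in KMS-12-PE.

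Phosphofructokinase, the committed step, had a form, PFKL, that rose in both KMS-12 lines. PFKL, the liver form, was higher in KMS-12-PE siIRF4 (92.2, 94.9 and 92.2 TPM) than in CTRL (68.5, 73.03 and 61.8 TPM), by 0.46 (SE 0.0569, adjusted p = 1.84e-06) and without overlap. In KMS-12-BM it went from 205, 188 and 187 to 231, 222 and 207 TPM (0.18, adjusted p = 0.0283), and in MM1R it was lower (-0.14, adjusted p = 0.0447), in MM1S -0.10 (adjusted p = 0.151). PFKM, the muscle form, fell in KMS-12-BM from 94.7, 93.97 and 89.9 TPM to 72.9, 73.2 and 75.6 TPM (-0.33, adjusted p = 1.54e-05) and rose in MM1R (0.19, adjusted p = 0.00131). The PFKL share of the 3 forms went from 54% to 60.7% in KMS-12-BM and from 20.4% to 26.2% in KMS-12-PE, and from 74.4% to 69.8% in MM1R and 70% to 67.9% in MM1S. The PFKL call in MM1R was lost without any 1 of 12 libraries, each MM1R library but siIRF4 replicate 3 among them (adjusted p 0.0504 to 0.183), and that in KMS-12-BM without CTRL replicate 2 or 3 or siIRF4 replicate 1 or 2 (0.0752 to 0.142) or with median-of-ratios scaling (0.0605). PFKFB4, which sets the level of an activator of phosphofructokinase, was lower in MM1R (-0.37, adjusted p = 0.0215) and MM1S (-0.35, adjusted p = 0.0246) at about 1 to 3 TPM; the MM1S difference was -0.62 with a pseudocount of 0.1 and -0.69 with voom. It was -0.23 (adjusted p = 0.168) without siIRF4 replicate 1, and was also not called without CTRL replicate 1. The MM1R call of PFKFB4 was lost without CTRL replicate 1 or 3 or siIRF4 replicate 2. PFKFB3, its relative, was called in no line, with differences between -0.04 and 0.11.

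FBP1, fructose bisphosphatase, which opposes phosphofructokinase, had the largest rise of the 37 tested members in both MM1 lines. MM1R CTRL libraries were at 2.07, 2.26 and 3.26 TPM and siIRF4 libraries at 13.2, 12.7 and 9.796 TPM, a difference of 1.87 (SE 0.106, adjusted p = 3.1e-11). MM1S went from 3.65, 3.98 and 3.32 TPM to 18.5, 15.5 and 17.2 TPM, by 1.96 (adjusted p = 7.05e-12). Every siIRF4 library of both lines was above the highest control. KMS-12-BM, where FBP1 was abundant, went from 63.5, 62.3 and 65.3 to 87.1, 80.2 and 79.01 TPM, by 0.36 (adjusted p = 0.0223), and KMS-12-PE from 3.46, 2.94 and 3.17 to 5.01, 4.42 and 4.97 TPM, by 0.47 (adjusted p = 0.00143). These groups did not overlap either. The MM1 effect exceeded the KMS-12 effect by 1.501 (adjusted p = 4.15e-10), and the sister lines did not differ by test (-0.08, adjusted p = 0.844 for MM1R minus MM1S). The KMS-12-BM call was lost with a pseudocount of 0.1 (adjusted p = 0.0577) and without CTRL replicate 1 or 2 or siIRF4 replicate 1 (0.0594 to 0.0987). Even after its rise FBP1 reached only 18.6% (MM1R) and 26.8% (MM1S) of the KMS-12-BM control level.

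Lower glycolysis is where ATP is earned. Of its 6 enzymes 5 were lower in MM1R (83.3%, against 21.2% of all tested genes) and 6 in MM1S (100%, against 21.1%). KMS-12-BM had 1 lower (16.7%, against 6.09%). For KMS-12-PE limma called 0, while 22.2% of all genes were lower. That line also had 0 at an unadjusted p under 0.05 and 0 by voom on the recovered reads. Higher calls were 0 in each line, against 25%, 29.1%, 11.4% and 15.9% of all genes in this order of lines. GAPDH, the dehydrogenase that follows aldolase and is often used as a reference gene, was at 4213, 4600 and 4518 TPM in MM1R CTRL and 3388, 3749 and 3914 TPM in siIRF4, and at 3732, 3907 and 3797 and 3244, 3200 and 3271 TPM in MM1S. The differences were -0.27 (SE 0.0408, adjusted p = 1.19e-05) and -0.23 (adjusted p = 5.49e-05), with no overlap. KMS-12-BM (-0.03) and KMS-12-PE (-0.04) were not called, and the families' effects differed by -0.22 (adjusted p = 0.000133).

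PKM, pyruvate kinase, which makes pyruvate in the last step, was at 597, 595 and 632 TPM in MM1R CTRL and 417, 448 and 457 TPM in siIRF4 (-0.46, adjusted p = 6.51e-09). MM1S had 508, 509.7 and 528 TPM and 395, 377 and 372 TPM (-0.43, adjusted p = 1.34e-08). Both MM1 lines ended well under their controls, while KMS-12-BM (-0.09, adjusted p = 0.111) and KMS-12-PE (-0.07, adjusted p = 0.157) were not called. The splice forms of PKM are not separated by these gene-level values. In both MM1 lines ENO2 had the most negative difference of the 15 enzymes: 368, 358 and 369.5 TPM to 225, 238 and 248 TPM in MM1R (-0.62, adjusted p = 2.95e-07) and 256, 281 and 279.8 TPM to 173, 154 and 157 TPM in MM1S (-0.75, adjusted p = 1.52e-08). The ubiquitous ENO1 fell by 9.41% in MM1R and 13.8% in MM1S, and the ENO2 share of both went from 24.7% to 19% and from 21.6% to 15.9%. PGAM1, phosphoglycerate mutase, fell by 17.6% and 21% in these lines.

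PGK1, the first enzyme to earn ATP and a well-known HIF target, showed small differences. In MM1R it was at 732, 717 and 748 TPM in CTRL and 734, 742 and 732 TPM in siIRF4, overlapping, with a difference of 0.01 (SE 0.0239, adjusted p = 0.848) and a 95% interval of -0.04 to 0.06. The MM1S and KMS-12-BM differences were -0.06 (adjusted p = 0.037) and -0.08 (adjusted p = 0.0206), falls of 4.17% and 5.52%, and each call was lost without any 1 of 4 libraries of its own line (CTRL replicates 1 and 2 and siIRF4 replicate 1 in both, siIRF4 replicate 3 in MM1S and replicate 2 in KMS-12-BM), with an adjusted p up to 0.155.

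Summed over the 15 enzymes with LDHA and LDHB, TPM in MM1R went from 12162, 12525 and 12684 in CTRL to 9813, 10441 and 10696 in siIRF4, a fall of 17.2%. In MM1S the sum fell by 19%, in KMS-12-BM it fell by 3.45% and in KMS-12-PE it fell by 4.58%. Of the 15 enzymes, 9 had an effect that was called lower in the MM1 lines than in the KMS-12 lines and 3 one that was higher, where 20% and 25% of all genes were called. GAPDH, PGAM1, ENO1, ALDOA, TPI1, PKM and LDHA have many processed pseudogenes, and how reads shared with them were counted is not given in the sources used here.

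**Figure D2:**
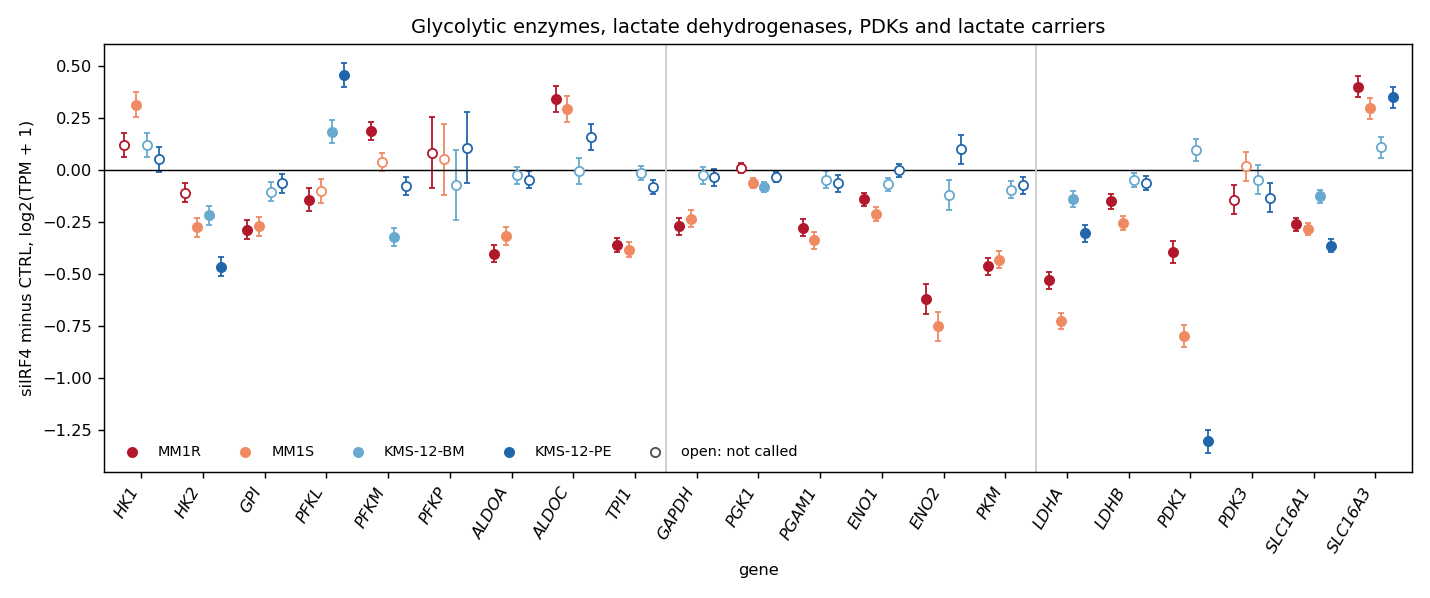
Difference siIRF4 minus CTRL in log2(TPM + 1) with its SE (vertical axis) for the 15 glycolytic enzymes in pathway order and 6 genes of lactate and pyruvate handling (horizontal axis), 1 point per line from 3 against 3 libraries; filled points were called at an adjusted p under 0.05. From ALDOA to PKM the red and orange MM1 points mostly lie below 0 and the blue KMS-12 points near 0, while PDK1 is lowest in KMS-12-PE at -1.31.

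Of the 6 genes of lactate and pyruvate handling, LDHA and SLC16A1 fell in all 4 lines and PDK1 in 3. LDHA, the subunit of lactate dehydrogenase that favours lactate, was at 1091, 1106 and 1130 TPM in MM1R CTRL and 715, 785 and 803 TPM in siIRF4, or -0.53 (SE 0.0395, adjusted p = 8.2e-10). MM1S went from 1355, 1359 and 1289 TPM to 806, 828 and 784 TPM, or -0.73 (adjusted p = 7.03e-12). KMS-12-PE went from 1533, 1614 and 1651 TPM to 1288, 1303 and 1289 TPM, or -0.31 (adjusted p = 2.94e-06). In each of these 3 lines every siIRF4 library was below every control. KMS-12-BM had 977, 989.7 and 978 TPM in CTRL and 855, 884 and 936 TPM in siIRF4, a difference of -0.14 (adjusted p = 0.017) that was not called without CTRL replicate 2 or siIRF4 replicate 1 or 2 (adjusted p up to 0.107). Its promoter is among those printed above, with ACGTG in 3 places.

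LDHB, the subunit that favours pyruvate, fell in the MM1 lines, with differences of -0.15 (adjusted p = 0.00109) in MM1R and -0.26 (adjusted p = 2.76e-06) in MM1S, and was not called in KMS-12-BM (-0.05) or KMS-12-PE (-0.06). The LDHA share of both subunits went from 46.1% to 39.7% in MM1R, 45.5% to 37.6% in MM1S, 47.4% to 45.8% in KMS-12-BM and 50.9% to 46.7% in KMS-12-PE.

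PDK1 had the largest fall of the 37 members in KMS-12-PE on the log2(TPM + 1) scale. Its libraries there were at 59.4, 57.7 and 57.4 TPM in CTRL and 23.7, 21.7 and 23.4 TPM in siIRF4, a difference of -1.31 (SE 0.0539, adjusted p = 9.23e-14). MM1S went from 179, 159.8 and 161 TPM to 101, 91.3 and 93.5 TPM, or -0.80 (adjusted p = 1.33e-10), and MM1R from 215, 204 and 213 TPM to 152, 165 and 162 TPM, or -0.40 (adjusted p = 3.47e-06). The groups were apart in these 3 lines. KMS-12-BM, the line with least PDK1, had 12.9 to 13.97 TPM and 13.8 to 15.6 TPM, overlapping (0.10, adjusted p = 0.246). The effect differed between sister lines, by 0.40 (adjusted p = 0.00563) for MM1R minus MM1S and by 1.40 (adjusted p = 8.6e-11) for KMS-12-BM minus KMS-12-PE. PDK3, a related kinase at 3.41 to 6.34 TPM over the 24 libraries, was called in no line.

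Lactate carriers moved in opposite directions. SLC16A1 (MCT1) fell in all lines: 68.6, 64.8 and 65.8 to 54.9, 55.96 and 54.6 TPM in MM1R (-0.26, adjusted p = 3.62e-07), 86.9, 82.05 and 84.4 to 70.2, 69.8 and 67.4 TPM in MM1S (-0.29, adjusted p = 8.89e-08). The KMS-12-BM libraries went from 136, 139.5 and 137 to 126, 122.6 and 128 TPM (-0.13, adjusted p = 0.00505) and the KMS-12-PE libraries from 276, 272 and 271 to 209, 213 and 213 TPM (-0.36, adjusted p = 5.15e-09). In no line did the groups overlap. SLC16A3 (MCT4), the export carrier of strongly glycolytic cells and a HIF target, rose in MM1R from 14.4, 14.8 and 13.96 to 19.9, 18.9 and 19.2 TPM (0.40, adjusted p = 1.42e-06), in MM1S from 22.7, 22.2 and 24.4 to 29.7, 28.5 and 27.6 TPM (0.30, adjusted p = 4.66e-05) and in KMS-12-PE from 29.5, 29.3 and 26.2 to 36.9, 35.4 and 36.6 TPM (0.35, adjusted p = 1.37e-05). KMS-12-BM was not called (0.11, adjusted p = 0.156). The SLC16A3 share of both carriers went from 17.8% to 25.9% in MM1R, 21.5% to 29.2% in MM1S, 11% to 12.7% in KMS-12-BM and 9.39% to 14.6% in KMS-12-PE.

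**Figure D3:**
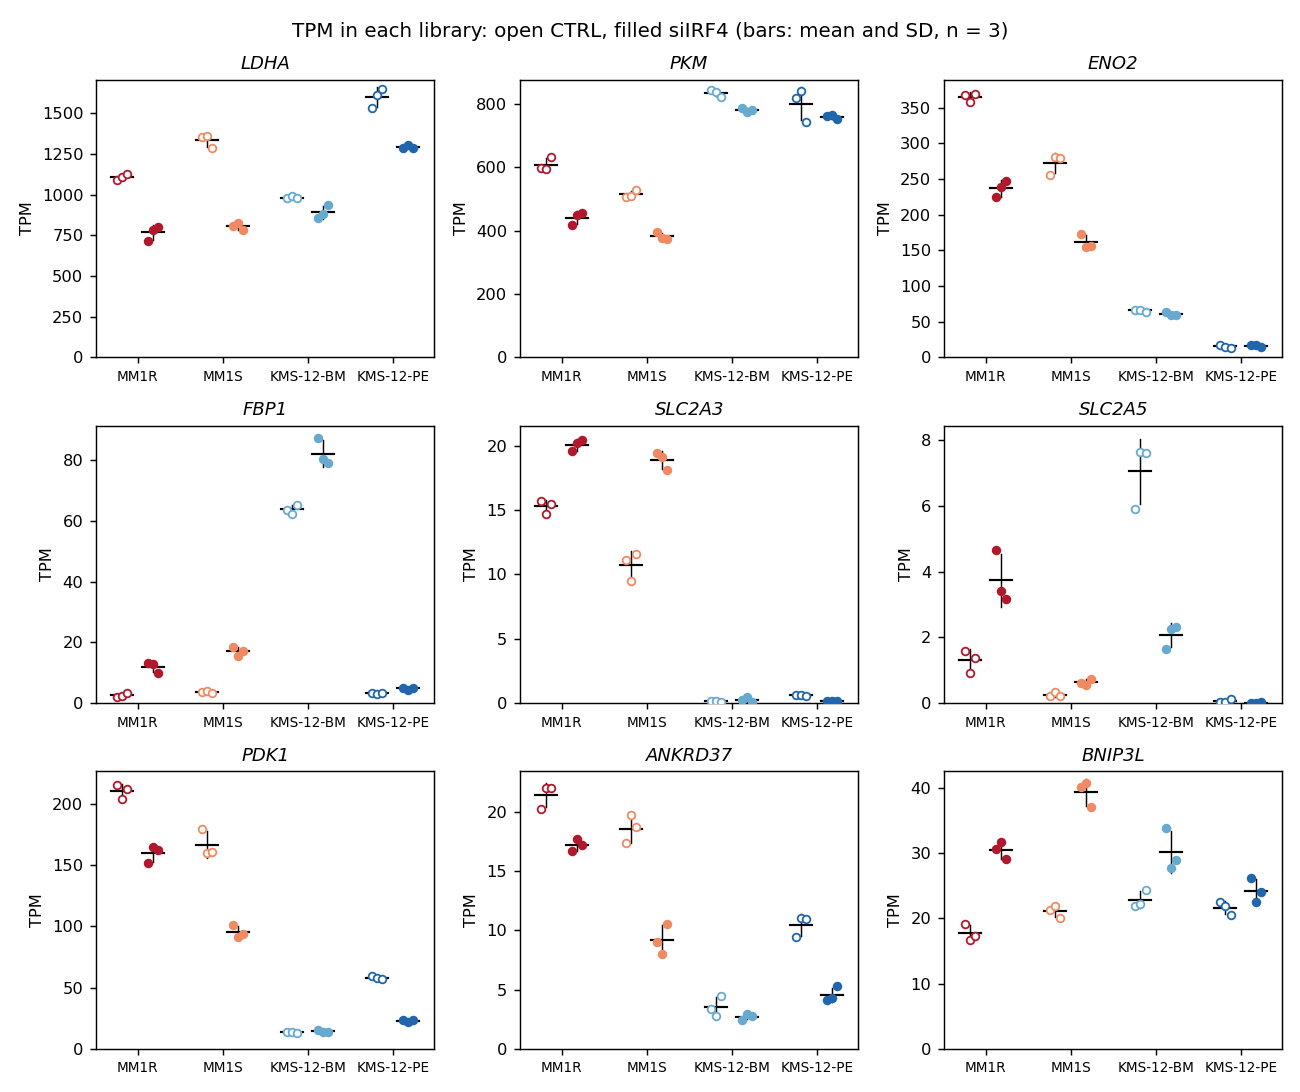
TPM of 9 members in each of the 24 libraries (vertical axis from 0, linear), by line (horizontal axis), with open points for CTRL, filled points for siIRF4 and bars for the mean and SD of 3 libraries. FBP1 rises and LDHA falls in every line, and SLC2A5 rises in the MM1 lines and falls in KMS-12-BM.

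HIF1A mRNA fell slightly in 3 lines. It was at 19.1, 17.8 and 17.4 TPM in MM1R CTRL and 14.9, 15.9 and 16.1 TPM in siIRF4 (-0.20, adjusted p = 0.0109), and lower in MM1S (-0.16, adjusted p = 0.0321) and KMS-12-PE (-0.23, adjusted p = 0.00431). In KMS-12-BM it went from 17.7, 16.4 and 16.5 to 19.97, 18.7 and 18.8 TPM, a value of 0.18 (adjusted p = 0.0507), and the KMS-12-BM effect exceeded that of KMS-12-PE by 0.41 (adjusted p = 0.00166). Without MM1R CTRL replicate 1 or siIRF4 replicate 1 the MM1R call was lost, and the MM1S call without CTRL replicate 1 or 3 or siIRF4 replicate 2 or 3 (adjusted p up to 0.159). HIF1A is controlled mainly through the stability of its protein, which was not measured. EGLN1, the main oxygen sensor, was at 18.02 to 20.1 TPM in MM1R CTRL and up to 34.3 TPM on average in KMS-12-PE CTRL, and was called in no line. EGLN3, a sensor that is itself a HIF target, had 0 to 13 reads per library.

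The 8 other hypoxia-induced genes split. BNIP3L and KDM3A rose in 3 lines, ADM, VEGFA, NDRG1, ANKRD37 and P4HA1 fell in at least 1 line each, and BNIP3 was called in none. In MM1R 2 of 8 were higher and 2 lower, in MM1S 2 and 4, in KMS-12-BM 2 and 1, and in KMS-12-PE 4 were lower. In MM1R these shares were near those of all genes (25% higher and 21.2% lower), and in MM1S 25% were higher against 29.1% and 50% lower against 21.1%. KMS-12-BM had 25% higher against 11.4% and 12.5% lower against 6.09%, and KMS-12-PE 50% lower against 22.2%.

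BNIP3L, a mitophagy receptor also known as NIX, was at 19.1, 16.7 and 17.4 TPM in MM1R CTRL and 30.7, 31.6 and 29.04 TPM in siIRF4, a rise of 0.75 (SE 0.0708, adjusted p = 2.31e-08). MM1S went from 21.4, 21.9 and 20.04 TPM to 40.2, 40.7 and 37.03 TPM, by 0.87 (adjusted p = 2e-09), and KMS-12-BM from 21.98, 22.3 and 24.4 TPM to 33.9, 27.8 and 28.9 TPM, by 0.38 (adjusted p = 0.000591). All 9 siIRF4 libraries of these 3 lines lay above their controls. KMS-12-PE overlapped, at 20.6 to 22.6 and 22.5 to 26.2 TPM (0.15, adjusted p = 0.0943). KDM3A, a histone demethylase that needs oxygen and is induced by HIF, also rose: 36.1, 34.4 and 36.9 to 56.9, 52.1 and 51.4 TPM in MM1R (0.57, adjusted p = 2.37e-08), 45.8, 44.7 and 43.4 to 74.96, 73.9 and 67.2 TPM in MM1S (0.68, adjusted p = 1.32e-09) and 26.7, 25.7 and 25.2 to 31.6, 28.6 and 29.1 TPM in KMS-12-BM (0.20, adjusted p = 0.0134). Its KMS-12-PE groups overlapped (0.04, adjusted p = 0.576), and its KMS-12-BM call was lost without CTRL replicate 3 or siIRF4 replicate 1 (adjusted p = 0.056 and 0.0893). The MM1 effect exceeded the KMS-12 effect by 0.54 (adjusted p = 2.31e-06) for BNIP3L and 0.50 (adjusted p = 1.43e-07) for KDM3A.

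ANKRD37, a small ankyrin repeat protein and a sensitive HIF target, fell most in MM1S and KMS-12-PE. MM1S was at 17.3, 19.7 and 18.7 TPM in CTRL and 9.01, 8.01 and 10.5 TPM in siIRF4, a difference of -0.95 (SE 0.11, adjusted p = 3e-07), and KMS-12-PE at 9.401, 11.1 and 10.96 and 4.13, 4.25 and 5.26 TPM, or -1.05 (adjusted p = 1.57e-07). Mean TPM fell by 50.6% in MM1S and fell by 56.6% in KMS-12-PE, and no group overlapped with its control. MM1R went from 20.2, 21.97 and 21.99 to 16.7, 17.7 and 17.2 TPM (-0.30, adjusted p = 0.03), a call lost without CTRL replicate 2 or 3 or siIRF4 replicate 1 or 3 and with a pseudocount of 0.1 (adjusted p = 0.0581), and KMS-12-BM was not called (-0.27, adjusted p = 0.0961).

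NDRG1, a stress-response gene induced by hypoxia, was called lower in MM1S and KMS-12-PE. MM1S fell from 57.1, 62.8 and 62.3 TPM to 48.2, 42.8 and 44.4 TPM (-0.42, adjusted p = 0.00178). With a pseudocount of 0.1 the MM1S difference was -0.43 and not called (adjusted p = 0.116). MM1R went from 62.01, 61.5 and 62.6 to 58.1, 63.95 and 60.8 TPM, overlapping and not called (-0.03, adjusted p = 0.875). The difference of the MM1R and MM1S effects was not called (0.39, adjusted p = 0.159). KMS-12-PE fell from 4.25, 5.69 and 5.92 TPM to 1.58, 2.05 and 2.08 TPM (-1.11, adjusted p = 3.14e-08). KMS-12-BM had 6 to 25 reads per library. P4HA1, a collagen prolyl hydroxylase subunit, was lower in KMS-12-PE (33.8, 32.2 and 33.3 to 23.1, 18.9 and 21.7 TPM, a difference of -0.62, adjusted p = 2.88e-07) and MM1S (-0.26, adjusted p = 0.00315), and was not called in MM1R (-0.09) or KMS-12-BM (-0.07).

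VEGFA, the angiogenic growth factor, fell in the KMS-12 pair and not by test in the MM1 pair. KMS-12-BM went from 28.1, 26.1 and 24.8 TPM to 18.4, 18.4 and 19.7 TPM (-0.46, adjusted p = 2.38e-05) and KMS-12-PE from 17.01, 18.02 and 15.5 TPM to 11.4, 11.3 and 11.5 TPM (-0.52, adjusted p = 1.29e-06), both without overlap. MM1R (-0.15, adjusted p = 0.0599) and MM1S (0.15, adjusted p = 0.0503) missed the threshold, and the families' effects differed by 0.49 (adjusted p = 1.82e-06). ADM showed the reverse: MM1R went from 273, 266 and 271 TPM to 205, 220.2 and 255 TPM (-0.26, adjusted p = 0.00636) and MM1S from 339, 319 and 351 TPM to 238, 243 and 245 TPM (-0.47, adjusted p = 1.34e-05). KMS-12-PE, with 117 to 137 TPM in CTRL and 117 to 121 TPM in siIRF4, and KMS-12-BM were not called. The ADM call in MM1R was lost without siIRF4 replicate 1 (adjusted p = 0.0569). BNIP3 was at 55.7 to 58.5 TPM in KMS-12-PE CTRL and 49.6 to 51.05 TPM in siIRF4, groups that did not overlap, and the difference was not called (-0.19, adjusted p = 0.218).

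**Figure D4:**
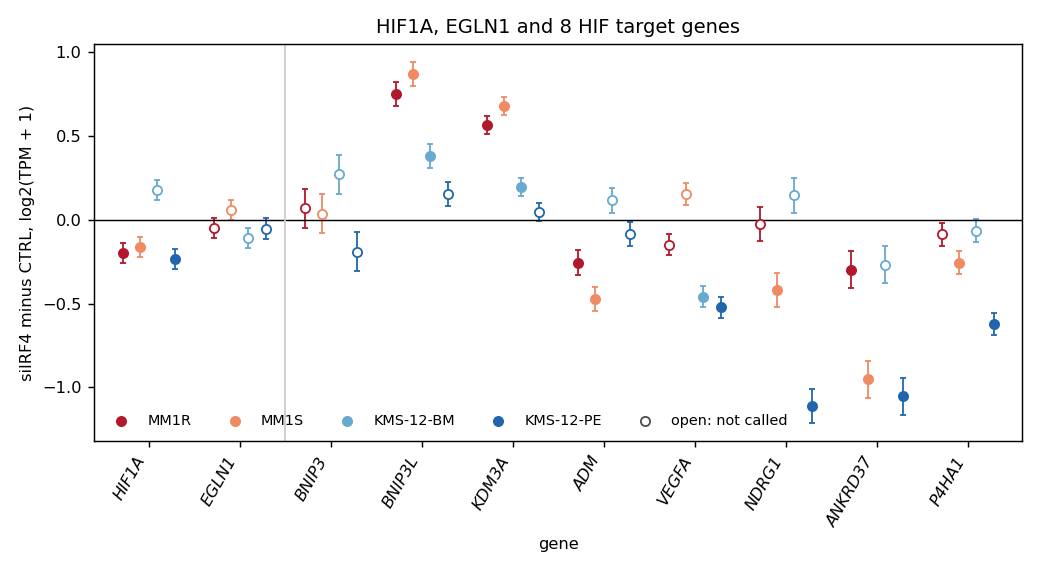
Difference siIRF4 minus CTRL in log2(TPM + 1) with its SE (vertical axis) for HIF1A, EGLN1 and 8 hypoxia-induced genes (horizontal axis), 1 point per line from 3 against 3 libraries; filled points were called at an adjusted p under 0.05. BNIP3L and KDM3A lie above 0 in the MM1 lines, and NDRG1 and ANKRD37 reach -1.11 and -1.05 in KMS-12-PE.

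Markers of other cell types moved with the KMS-12-PE results. The summed level of 7 stromal markers was 66.3 to 99.2 TPM in its CTRL libraries and 22.0 to 30.9 TPM in siIRF4, with 7 and 5 of the 7 averaging at least 1 TPM. That of 6 epithelial markers was 227 to 247 and 164 to 185 TPM (5 and 3 of 6). Among these EPCAM averaged 129.1 TPM in CTRL and 138.6 TPM in siIRF4, while KRT5 averaged 55.8 and 17.4 TPM and KRT14 52.3 and 15.7 TPM. The sum of 6 myeloid markers was 147 to 183 and 36.3 to 51.5 TPM (2 of 6 in both). It was mostly S100A8, which averaged 62.3 and 19.9 TPM, and S100A9, at 99.5 and 23.95 TPM. CD14, LYZ, CSF1R and ITGAM averaged below 1 TPM in both groups, with CD14 at 0.496 and 0.699 TPM and LYZ at 0.0703 and 0 TPM. The sum of 5 T and NK cell markers was higher instead, at 9.74 to 11.4 TPM in CTRL and 27.1 to 31.1 TPM in siIRF4 (1 and 2 of 5). Within it CD3E averaged 9.51 and 26.5 TPM, and CD3D 0.1445 and 0 TPM. The sum of 5 erythroid markers was at most 1.28 TPM (0 of 5 in both). In MM1S the stromal sum was 64.9 to 136 TPM in CTRL and 71.2 to 93.9 TPM in siIRF4, and in MM1R it was at most 1.12 TPM. SLC2A1, SLC2A3, HK2, LDHA, PDK1, SLC16A1, HIF1A, VEGFA, NDRG1, ANKRD37 and P4HA1 were lower in the same KMS-12-PE libraries; the part of these markers in that was not tested. The same genes in KMS-12-BM gave 4 calls lower (HK2, LDHA, SLC16A1 and VEGFA). The stromal sum moved there too: it was 65.2 to 70.3 TPM in CTRL and 40.5 to 42.0 TPM in siIRF4. Only COL6A3 of the 7 averaged at least 1 TPM in either group, at 67.1 and 40.4 TPM. The epithelial sum was 210 to 215 and 213 to 226 TPM (2 of 6 in both). The KMS-12-BM myeloid sum was at most 1.67 TPM, with S100A8 at 0 in all 6 libraries, and the T and NK cell sum was 12.7 to 13.6 and 12.8 to 17.3 TPM.

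The sister KMS-12 lines differed in effect for 15 members, 11 with a higher and 4 with a lower value in KMS-12-BM, where 15.9% of all genes were called higher and 7.11% lower. The 4 lower were 2 without KMS-12-PE CTRL replicate 3, and with median-of-ratios scaling the share of higher genes among all genes called here was 52.4% in place of 69.1%. MM1R and MM1S differed for 3 members, SLC2A5, PDK1 and ANKRD37, all with the higher value in MM1R, against 1.14% of all genes higher and 1.33% lower. That count was 1, not 3, without MM1R siIRF4 replicate 2, MM1S CTRL replicate 2 or 3, or MM1S siIRF4 replicate 1 or 2. Between families 24 members differed, 11 higher and 13 lower in the MM1 lines, against the 25% and 20% of all genes given above. IRF4 itself fell less in MM1R than in MM1S, by 0.62 (adjusted p = 0.000908).

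MYC, a transcription factor known to drive glycolytic genes, was called higher in the MM1 lines and lower in the KMS-12 lines. It went in MM1R from 309.5, 309 and 325 to 448, 428 and 425 TPM (0.46, adjusted p = 2.59e-08) and was also higher in MM1S (0.23, adjusted p = 0.000193). In KMS-12-BM it went from 1176, 1135 and 1121 to 834, 810.4 and 824 TPM (-0.47, adjusted p = 1.19e-07) and in KMS-12-PE it fell by 18.4% (-0.29, adjusted p = 2.21e-05).

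Genes next to the members in metabolism were read from 7 further lists, and the counts here are for the average over the 4 lines, where 33.1% of all genes were called higher and 26.5% lower. Of 16 tested further genes of glycolysis and gluconeogenesis 5 were higher and 5 lower (31.2% each), shares near those of all genes: PGAM2, the muscle phosphoglycerate mutase, was higher by 0.56 (adjusted p = 4.35e-08), though not called in KMS-12-BM (-0.10). ADPGK, a glucokinase that uses ADP, was lower on average (-0.14, adjusted p = 2.6e-06), with calls in both directions: 0.14 in MM1R against -0.50 in KMS-12-PE and -0.24 in KMS-12-BM, and 0.04 in MM1S, not called. The pentose phosphate pathway had 5 of 8 lower (62.5%), among them its transketolase TKT (-0.19, adjusted p = 2.07e-07), and 1 higher, PGLS (0.42, adjusted p = 1.74e-09). Pyruvate entry into mitochondria had 5 of 12 lower (41.7%) and 2 higher (16.7%); MPC1, a subunit of the mitochondrial pyruvate carrier, was at -0.27 (adjusted p = 1.17e-08) and DLAT, a core subunit of pyruvate dehydrogenase, at -0.25 (adjusted p = 3.37e-09), while PDK2 was at 0.21 (adjusted p = 1.02e-07). Of 7 other sugar carriers 4 were higher (57.1%), with SLC2A6 at 0.45 (adjusted p = 2.41e-07) and SLC2A11 at 0.39 (adjusted p = 7e-08). These averages did not hold alike in each line. In MM1R, MM1S, KMS-12-BM and KMS-12-PE, MPC1 was at -0.42, -0.46, -0.02 and -0.19, and TKT at -0.36, -0.29, -0.06 and -0.04. In KMS-12-BM DLAT was at -0.08, PGLS at 0.10, SLC2A6 at 0.21 and SLC2A11 at -0.03, and PDK2 was at -0.01 in KMS-12-PE.

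HIF machinery had 5 of 10 higher (50%) and 3 lower (30%), the latter near the 26.5% of all genes. VHL, which binds hydroxylated HIF1A for destruction, was at 0.16 (adjusted p = 1.78e-05), though at 0.02 in KMS-12-BM against 0.20, 0.32 and 0.10 in MM1R, MM1S and KMS-12-PE. HIF1AN, which blocks HIF activity by another hydroxylation, was at 0.19 (adjusted p = 4.99e-06). TCEB1, a partner of VHL, was at -0.26 (adjusted p = 7.39e-10). EPAS1, the second HIF alpha subunit, was at -0.10 (adjusted p = 0.124) on average and at -0.43 (adjusted p = 0.00482) in KMS-12-PE. Of 29 further hypoxia-induced genes 8 were higher (27.6%, below the 33.1% of all genes) and 13 lower (44.8%, against 26.5%) on average. In KMS-12-PE 3 were higher (10.3%, against 15.9%) and 15 lower (51.7%, against 22.2%). DDIT4, an inhibitor of mTOR signalling, was higher in all 4 lines, by 0.89, 1.31, 0.51 and 1.195 in MM1R, MM1S, KMS-12-BM and KMS-12-PE (average 0.98, adjusted p = 4.16e-14), and TFRC, the transferrin receptor, lower, with -0.47, -0.81, -0.38 and -0.42 in the same order (average -0.52, adjusted p = 8.36e-14). TXNIP, which restrains glucose uptake and is induced when glucose metabolites build up, rose by 0.70 in MM1R, 0.92 in MM1S and 0.82 in KMS-12-BM and fell in KMS-12-PE (-0.23, adjusted p = 0.00524). It was the 1 of 4 glucose-sensing genes that was called on average (0.55, adjusted p = 3.5e-12), and MLXIP, a glucose-responsive factor that acts on it, was not (-0.01, adjusted p = 0.851).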

How the data were processed

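RNA was measured in 24 libraries of 4 lines, 3 per group. Per the submitters' processing notes the authors used STAR, featureCounts, FastQC and MultiQC with hg19, without versions; no source used here gives the annotation or the strand setting. Each library has 1 column of TPM, deposited as the authors made them. Rows with a date in place of a symbol, 28 in all and at most 0.147% of TPM, were dropped. TPM steps gave back whole reads (tolerance 0.02 reads, at least 6 libraries with a value) for 20484 genes holding at least 99.96% of each library's TPM, and gave totals of 17.3 to 27.4 M reads.

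The 15113 genes with at least 1 TPM in at least 3 libraries were tested as log2(TPM + 1), with a pseudocount of 1, in 1 fit of 8 group means with limma 3.58.1 (R 4.3.3; trended, robust eBayes; two-sided; Benjamini-Hochberg over all genes of a comparison). The comparisons set siIRF4 against CTRL by line and averaged over the lines, then the effects, and the CTRL levels, of 1 line or family against another. Shares of isoforms are shares of summed TPM and were not tested. Alternative settings were voom on the recovered reads, fits of single lines or pairs, each library left out, the replicate block, median-of-ratios scaling, an untrended prior, a pseudocount of 0.1, all genes unfiltered, and genes averaging 5 TPM or more. On simulated data with 15113 genes, siIRF4 against CTRL in MM1R recovered 66.2% of changes of 0.3, 90.9% of 0.6 and 98.5% of 1 (log2). In both KMS-12 lines 60.3% of changes of 0.3 were recovered. In this simulation 14913 genes were left unchanged, so far fewer genes changed than were called in these data. Genes of low mean level were given no change, so the shares do not cover members near 1 TPM. Python 3.11.15, pandas 2.3.3 and matplotlib 3.10.9 were used for tables and plots.

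The members, the lists and the rule for named genes were chosen with earlier results of these data known. Any member, IRF4 and MYC could be named, and from each further list up to 3 genes higher and 3 lower with the smallest p on average, plus MLXIP, TXNIP, EPAS1, ARNT and VHL. Promoter windows are from RefSeq (GRCh38.p14), matched by symbol.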

Additional observations from a re-analysis of the deposited data

Results flagged for a closer look

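The siIRF4 effect differed between lines, by limma's test of the difference itself at an adjusted p under 0.05, for the members given here, as differences of log2(TPM + 1) effects. Between MM1R and MM1S, MM1R had the higher value for SLC2A5 (0.66), PDK1 (0.40) and ANKRD37 (0.65); SLC2A5 was below 1 TPM in MM1S, and its call was lost without any 1 of 18 libraries and with voom (0.18, adjusted p = 0.905). The ANKRD37 call was lost without any 1 of 7 libraries (adjusted p 0.0537 to 0.074) and with a pseudocount of 0.1 (0.0647).

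KMS-12-BM had a higher value than KMS-12-PE for PDK1 (1.40), NDRG1 (1.25), ANKRD37 (0.78), SLC2A3 (0.58), P4HA1 (0.56), BNIP3 (0.46), HIF1A (0.41), SLC2A1 (0.34), HK2 (0.25), SLC16A1 (0.24) and LDHA (0.17). It had a lower value for SLC2A5 (-1.32), PFKL (-0.27), PFKM (-0.25) and SLC16A3 (-0.24). KMS-12-PE had at most 3 reads of SLC2A5 per library, and with voom that difference was -0.31 (adjusted p = 0.846). The BNIP3 call was lost without any 1 of 19 libraries, and the LDHA difference was 0.10 (adjusted p = 0.341) with median-of-ratios scaling and lost its call without any 1 of 9. The calls of PFKL and SLC16A3 were lost without any 1 of 3 and 2 libraries, and with voom that of ANKRD37 had an adjusted p of 0.0671. SLC2A3 was below 1 TPM in both lines, and its difference was 2.18 with voom; that of NDRG1 was 2.03.

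Effects in the MM1 lines were higher than in the KMS-12 lines for FBP1 (1.501), SLC2A5 (1.45), SLC2A3 (0.77), BNIP3L (0.54), KDM3A (0.50), VEGFA (0.49), PFKM (0.31), NDRG1 (0.26), ALDOC (0.24), P4HA1 (0.17) and HK2 (0.15). They were lower for ENO2 (-0.68), PFKL (-0.44), LDHA (-0.41), ADM (-0.38), PKM (-0.36), TPI1 (-0.32), ALDOA (-0.32), PGAM1 (-0.25), GAPDH (-0.22), GPI (-0.19), HIF1A (-0.15), LDHB (-0.15) and ENO1 (-0.14). Those of NDRG1, P4HA1 and HIF1A were lost without any 1 of 16, 16 and 17 libraries and with a pseudocount of 0.1 (adjusted p = 0.362, 0.0511 and 0.0514), and that of NDRG1 was 0.15 (0.682) with voom. With voom the differences were 3.08 for SLC2A5 and 1.47 for SLC2A3.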

How the results depend on the processing

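Of 247 called differences of the 37 members over 11 comparisons, 222 kept their call and sign whichever of the 24 libraries was left out. Under the 8 other settings 26 lost it at least once; 179 had a value under all 8, and 160 of these kept call and sign, while 16 had no value at a mean of at least 5 TPM and 54 none in fits of single lines or pairs. The sign of the 4-line average of SLC2A3 turned with a pseudocount of 0.1 (-0.0186, adjusted p = 0.917) and with voom on the recovered reads (-0.1395, adjusted p = 0.502); the cause was not tested. Members higher in KMS-12-PE numbered 5 with median-of-ratios scaling and 6 with voom, in place of 3. For MM1R minus MM1S, members with a higher effect numbered 1 in place of 3 with a pseudocount of 0.1, and those with a lower effect 2 in place of 0 with voom (limma, 3 at an unadjusted p under 0.05). With 1 library left out, the counts of higher and lower members ranged over 8 to 9 and 14 to 20 in MM1R, 8 to 9 and 18 to 21 in MM1S, 2 to 5 and 5 to 8 in KMS-12-BM, 3 to 5 and 11 to 12 in KMS-12-PE, 1 to 3 and 0 to 1 for MM1R minus MM1S, and 9 to 11 and 2 to 5 for KMS-12-BM minus KMS-12-PE. Fits of single lines lost SLC2A1 in MM1R (adjusted p = 0.108) and MM1S (0.0551), HIF1A in MM1S (0.0707), PGK1 in MM1S (0.136) and KMS-12-BM (0.0835) and PFKL in KMS-12-BM (0.0583), and fits of pairs lost the differences of SLC2A5 in MM1R minus MM1S (0.102) and BNIP3 in KMS-12-BM minus KMS-12-PE (0.0693). Fits by line were not run for the average or the difference between families, which use all libraries. CTRL and siIRF4 libraries of a line with the same replicate number showed no clear shared deviation over the tested genes (correlations between -0.088 and 0.086). These correlations cannot show whether a pairing affected only some genes. With the replicate number as a block (replicate block) the counts higher and lower were 8 and 17 in MM1R, 8 and 21 in MM1S, 5 and 7 in KMS-12-BM, and 4 and 12 in KMS-12-PE. Depth limits the members averaging about 1 TPM or less: SLC2A3 in both KMS-12 lines, SLC2A5 in MM1S and KMS-12-PE, PFKP in MM1R, PFKFB4 in MM1S siIRF4, BNIP3 and NDRG1 in KMS-12-BM, and EGLN3.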
